A study of Mus musculus with 16 samples.

Results

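The laterality score of a gene is the log2 ratio of its RNA level in the left medial prefrontal cortex (mPFC) to that in the right, log2 L/R. The difference between this score in susceptible and in resilient mice was measured on 12 of the 16 arrays of the series, 3 for each side of the susceptible and of the resilient mPFC. The other 4 arrays, 2 per side, came from non-stressed control mice and are given as background. In array order, every control falls within the first 8 places. Each stressed group has 1 array per side there and 2 per side in the last 8. Control status is thus partly confounded with array order, and the levels set beside controls below are not adjusted for it. All mice were adult males, of the strain C57BL/6 in the labels and C57BL/6 J in the methods. Control mice were not attacked but also took a social interaction test, which uses a CD-1 mouse as target. Both stressed groups went through repeated attacks by an aggressive CD-1 mouse and were then sorted by their sociability index in that test. Susceptible mice were the socially avoidant ones and resilient mice those that stayed sociable, and mice of intermediate index were left out. The mice were killed a day after the test and the left and right mPFC were dissected separately. The labels give 7 mice per group, while the methods give another number for the resilient and control groups. RNA of single mice was pooled in equal parts before hybridisation, and neither source says which mice each array holds. The p-values therefore measure the spread between arrays, which may be technical and is at most that between pools, not that between mice. A group is a set of mice selected after the same treatment, and a cause and an effect of the behaviour cannot be told apart.

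The mPFC weighs social and threatening signals and steers the stress response through its projections to subcortical regions. Its upper layers hold neurons that connect cortical areas, layer 6 sends axons to the thalamus, and layer 6b is a thin sheet of early-born neurons that lies on the white matter, where oligodendrocytes wrap axons in myelin. Fibroblasts of the meninges cover the surface of the cortex. Each of these cell types has RNAs of its own, so an array of bulk tissue reads both how many such cells were in the dissected piece and how much RNA each of them held. In bulk samples, fewer cells of a type and less RNA per cell cannot be told apart.

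The arrays carried 25697 probes for 16593 named genes. A gene was tested where its brightest probe was detected on all 16 arrays, which left 8419 genes. Mean signals of 376 to 552 (resilient), 380 to 502 (susceptible) and 505 to 567 (control) were recorded, and each stressed array had 13648 to 14364 detected probes. The number of arrays limits the precision, and the median standard error of the difference in log2 L/R was 0.09. Cortical excitatory markers were present, with a summed signal of 5 markers between 18712 and 21082 on stressed arrays, and none of the choroid plexus markers on the array was detected on every array. No probe measures susceptibility itself, so the labels of the mice could not be checked against a gene.

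The genes whose log2 L/R differed between the groups were mostly lateralized in susceptible mice and close to balanced in resilient mice. Of the 8419 genes, 181 (2.15%) had a log2 L/R that differed between the groups at an adjusted p below 0.05 (limma, Benjamini-Hochberg over all genes tested, hereafter called), 87 of them (1.03%) shifted to the left in susceptible mice and 94 (1.12%) shifted to the right. The differences had sizes from 0.31 to 0.99 on the log2 scale, with a median of 0.44. An unadjusted p below 0.05 was reached by 1023 of the 8419 genes. This count and the shares of called genes are the background for the list counts below. Under plain scaling of each array by its median, without quantile normalization, Cux2 alone was called and all 60 named called genes kept their direction. Of the 181 genes, 157 had lost their side difference in resilient mice, meaning that log2 L/R passed an unadjusted p of 0.05 in susceptible mice and not in resilient mice. In 21 genes the side difference was reversed, with log2 L/R past that level in both groups and of opposite sign. Wfs1 kept its direction at a smaller size, and Gbp2 and Tmem229b passed that level in resilient mice alone.

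A side difference that misses the threshold in resilient mice is not shown to be 0, so its interval was computed. Over the 157 genes with a lost side difference, the 95% interval of log2 L/R in resilient mice reached 0.12 to 0.19 to each side of the estimate. For 146 of them the whole interval was smaller in size than the value of susceptible mice, and for 100 it stayed below 50% of that value in size. The largest resilient value among them was 0.15 in size, and 115 of the 157 had the opposite sign to the susceptible value. The median log2 L/R of the 94 genes shifted to the right was -0.40 in susceptible mice, 0.04 in resilient ones and 0.08 in controls. For the 87 genes shifted to the left these medians were 0.41, -0.05 and -0.07. A lost side difference is defined by a resilient value short of the threshold, and all called genes were selected in part by their resilient values. The small resilient values, their signs and these counts are therefore a description and not separate evidence of balance.

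**Figure D1:**
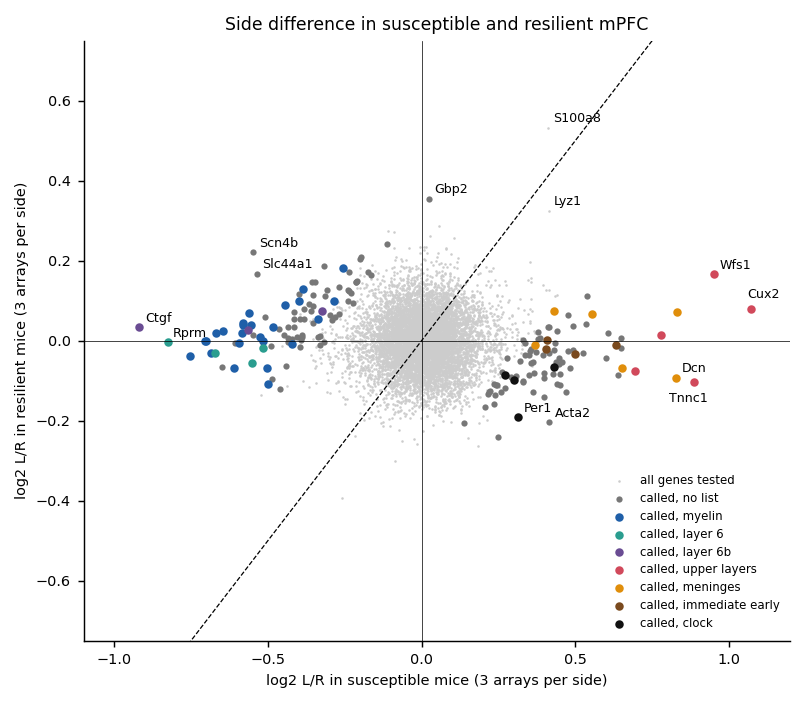
Log2 L/R in susceptible mice (x axis) against log2 L/R in resilient mice (y axis) for 8419 genes, each from 3 arrays per side, with the 181 genes whose 2 values differed drawn larger and coloured by list. The called genes spread from -0.92 to 1.07 along the x axis and within 0.36 of 0 on the y axis, while S100a8 and Lyz1 lie near the dashed line of equal values.

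Myelin genes formed the largest group. Of 37 listed genes of myelin and mature oligodendrocytes, 28 were tested and 25 were called, all of them shifted to the right in susceptible mice, against 1.12% of all genes. The median difference of the 28 was -0.53, against 0.003 over all genes, and their median log2 L/R was -0.52 in susceptible and 0.02 in resilient mice. Mbp, the basic protein that compacts the myelin sheath, read 13.61, 13.58 and 13.56 (log2 signal) on the left arrays of susceptible mice and 14.20, 14.18 and 14.12 on the right. In resilient mice it read 14.11, 14.20 and 14.20 on the left and 14.14, 14.16 and 14.08 on the right, and control arrays lay between 13.95 and 14.14. The susceptible left arrays were thus the low ones and did not overlap any other group, and the resilient sides overlapped. Over all genes, left and right arrays were apart in 20.1% in susceptible mice and in 8.84% in resilient mice. The difference in log2 L/R of Mbp was -0.62 ± 0.08 (SE, n = 3 arrays per side and group, limma adjusted p = 2.75e-05). A dimmer Mbp probe gave -0.73 and another 0.09 with an unadjusted p of 0.31, so that probes of Mbp did not all move together.

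Other myelin genes had the same arrangement. Mog, a glycoprotein of the outer face of the sheath, read 8.84, 8.69 and 8.67 on the susceptible left and 9.41, 9.47 and 9.38 on the right, against 9.40, 9.41 and 9.32 on the resilient left and 9.36, 9.48 and 9.39 on the right. Its difference in log2 L/R was -0.65 ± 0.09 (adjusted p = 5.19e-05). Trf, the iron carrier transferrin that oligodendrocytes make in brain, had -0.72 ± 0.10 (adjusted p = 5.47e-05), and its left level was 59.3% of the right in susceptible mice and 97.4% in resilient mice. Prr18, Anln, Bcas1, Fa2h (the hydroxylase of myelin lipids), Mal (a lipid raft protein) and Cldn11 (the tight junction protein of the sheath) lay between -0.70 and -0.62. The 3 members that were not called were Car2 at -0.41, Apod at -0.29 and Mtmr2 at -0.26. The summed signal of the 28 genes was 36765 to 36972 on susceptible left arrays, 54465 to 54839 on susceptible right arrays, 54263 to 57389 over both resilient sides and 47548 to 52178 in controls. Of 9 tested genes of oligodendrocyte precursors, which divide and do not yet make myelin, 0 were called by limma and 1 passed an unadjusted p of 0.05, with a median difference of -0.07.

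Some markers of layers 6 and 6b were called to the right in susceptible mice as well. Of 10 tested markers of layer 6 corticothalamic neurons, 4 were called, against 1.12% of all genes, and all 10 had a negative difference (median -0.33). Of 7 tested layer 6b markers, 3 were called and 6 were negative (median -0.27). Ctgf, a secreted matrix protein made in layer 6b, read 10.19, 10.22 and 10.18 on the susceptible left and 11.07, 11.16 and 11.10 on the right. On the resilient left it read 11.04, 11.09 and 11.07 and on the right 11.07, 11.06 and 10.96, while control arrays read 10.38 and 10.33 on the left and 10.28 and 10.15 on the right. The susceptible left arrays were low and near the control arrays, while the susceptible right arrays and the resilient arrays of both sides were high and overlapped. The difference in log2 L/R was -0.95 ± 0.08 (adjusted p = 8.04e-08), the largest of the 94 genes shifted to the right. The left level of Ctgf was 52.9% of the right in susceptible mice and 102% in resilient mice, where the 95% interval of log2 L/R ran from -0.09 to 0.15.

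Rprm, a cell cycle inhibitor that marks layer 6, read 10.84, 10.83 and 10.69 on the susceptible left and 11.53, 11.62 and 11.68 on the right. In resilient mice it read 11.38, 11.29 and 11.43 on the left and 11.11, 11.52 and 11.48 on the right, so the resilient sides overlapped and resilient right replicate 1 was the lowest resilient array. The difference was -0.82 ± 0.12 (adjusted p = 5.92e-05). Sulf1 (a heparan sulfate sulfatase), Zfpm2 (a cofactor of GATA factors) and Sla (an adaptor protein) had -0.64, -0.50 and -0.50. The uncalled layer 6 markers included Ntsr1 at -0.33, Tle4 at -0.29 and Foxp2 at -0.20. In layer 6b, Lpar1, a lysophosphatidic acid receptor that oligodendrocytes also carry, had -0.59 and Drd1, the D1 dopamine receptor, had -0.40, while Nr4a2 had -0.15 and was not called. Of 11 tested layer 5 markers, 0 were called by limma and 1 passed an unadjusted p of 0.05 (median -0.06).

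The called upper-layer genes were shifted the other way. Of 11 tested markers, 5 were called to the left in susceptible mice, against 1.03% of all genes, and all 11 had a positive difference (median 0.27). Cux2, a homeobox factor of layers 2 to 4, read 9.42, 9.42 and 9.53 on the susceptible left and 8.22, 8.59 and 8.35 on the right. Resilient arrays read 8.98, 9.18 and 9.15 on the left and 8.93, 9.13 and 9.01 on the right, and control arrays ran from 9.22 to 9.33. The susceptible left was above and the susceptible right below every resilient array, and the resilient sides overlapped. Its difference was 0.99 ± 0.11 (adjusted p = 2.96e-06), and its left level was 210% of the right in susceptible and 106% in resilient mice. The difference of Tnnc1, the troponin subunit that binds calcium, was 0.99 ± 0.10 (adjusted p = 4.92e-07).

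Wfs1, a membrane protein of the endoplasmic reticulum, was the called gene whose log2 L/R passed an unadjusted p of 0.05 on the same side in both groups, although the resilient value failed adjustment (adjusted p = 0.99). It read 9.34, 9.48 and 9.25 on the susceptible left and 8.35, 8.49 and 8.38 on the right, and 9.04, 9.14 and 9.08 on the resilient left against 8.88, 9.09 and 8.79 on the right. The resilient sides overlapped, and log2 L/R was 0.17 with a 95% interval from 0.02 to 0.31, against 0.95 in susceptible mice. Nectin3, an adhesion molecule, and Stard8 had a difference of 0.77 each with a resilient log2 L/R of 0.01 and -0.08. The other 6 upper-layer markers, among them Cux1 at 0.12, Rorb at 0.15 and Mef2c at 0.26, were not called.

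The called meningeal genes were shifted to the left, as those of the upper layers were. Of 10 tested markers, 6 were called, all to the left in susceptible mice, against 1.03% of all genes, and the median difference was 0.37. Dcn, the matrix proteoglycan decorin, read 8.27, 8.37 and 8.51 on the susceptible left and 7.55, 7.53 and 7.59 on the right, and 8.08, 8.02 and 7.99 on the resilient left against 8.14, 8.06 and 8.17 on the right. The susceptible right arrays were the lowest of all groups, since control arrays ran from 7.93 to 8.15. The difference was 0.92 ± 0.09 (adjusted p = 3.91e-07), and a dimmer Dcn probe gave 0.33 (adjusted p over all probes 0.065). Slc13a4, a sulfate transporter, had 0.76 ± 0.10, Gjb2, the gap junction protein connexin 26, had 0.72 ± 0.09, and Igf2, a growth factor, had 0.49 ± 0.09. Serpinf1 and Mgp had 0.38 and 0.36, and Ptgds, a prostaglandin synthase that the meninges share with oligodendrocytes, was not called at -0.10. The summed signal of the 10 genes was 3880 to 4022 on susceptible left arrays, 2951 to 3138 on susceptible right arrays and 3539 to 3819 over both resilient sides. The called upper-layer and meningeal markers and the called myelin, layer 6 and layer 6b markers were thus shifted in opposite directions on the same arrays, and the part of the dissected tissue's make-up in the values of the other genes was not tested.

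**Figure D2:**
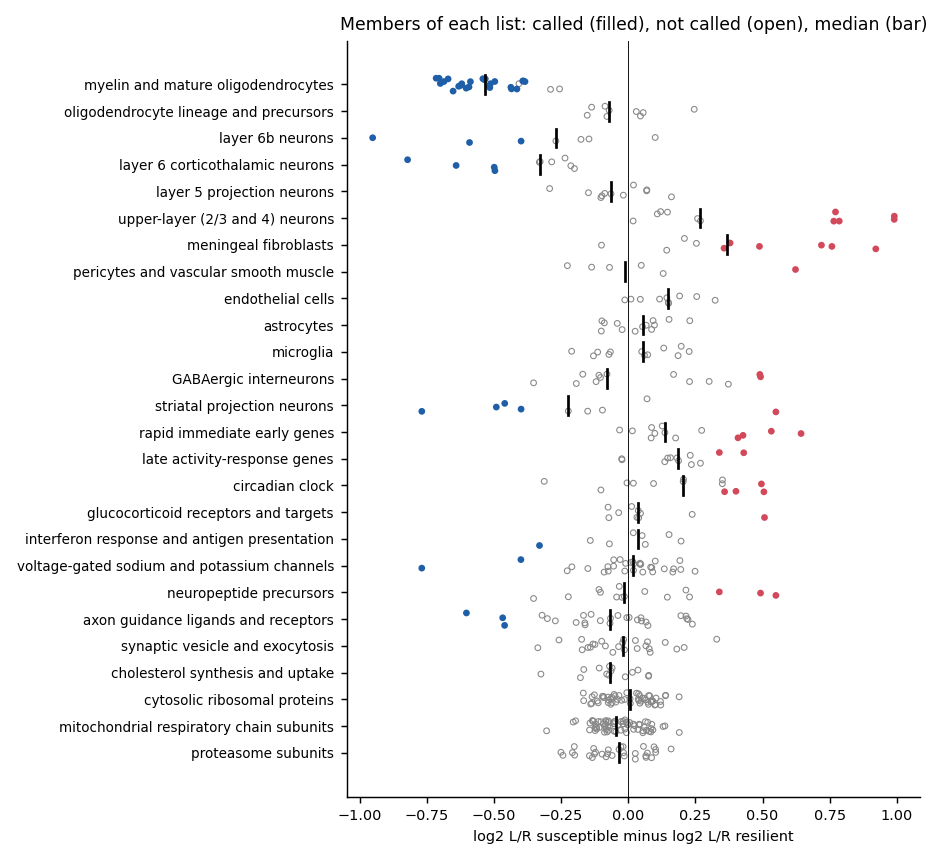
Difference in log2 L/R, susceptible minus resilient (x axis), for every tested member of 26 gene lists (rows). Filled points are called genes, blue to the right and red to the left in susceptible mice, open points are not called, and black bars are list medians, which run from -0.53 for myelin to 0.37 for meningeal fibroblasts.

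Genes that neurons switch on when they are active leaned to the left in susceptible mice. Immediate early genes encode transcription factors made within minutes of activity, and later genes encode secreted and synaptic proteins. Of 13 tested immediate early genes, 4 were called to the left and 12 had a positive difference (median 0.14). Of 12 later activity genes, 2 were called and 10 were positive (median 0.18). Over all genes, 1.03% were called to the left. Egr2, a zinc finger factor, read 8.47, 8.49 and 8.47 on the susceptible left and 7.86, 7.82 and 7.86 on the right. Resilient arrays read 8.19, 8.04 and 8.01 on the left and 8.22, 7.94 and 8.11 on the right, so the susceptible arrays lay above them on the left and below them on the right. The difference was 0.64 ± 0.09 (adjusted p = 8.93e-05). Egr4, a zinc finger factor like Egr2, had 0.53, Fosb and Junb, leucine zipper factors of the AP-1 family, had 0.43 and 0.41, and Junb lost its call in 12 of the 32 alternative settings. Bdnf, a neurotrophin, had 0.43 and Vgf, a secreted neuropeptide precursor that responds to it, had 0.34. Vgf lost its call in 8 of the settings and Bdnf in 2. The uncalled immediate early genes included Egr1 at 0.09, Arc at 0.14 and Npas4 at 0.18.

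Clock genes were the other regulatory group with called members. The molecular clock is a loop in which the factors CLOCK and BMAL1 (gene Arntl) bind E-boxes and switch on Per genes and further repressors, whose proteins then switch the loop off. Of 13 tested clock genes, 4 were called to the left in susceptible mice, against 1.03% of all genes, and the median difference was 0.21. They were the repressors Per1 (0.50 ± 0.11), Bhlhe40 (0.50 ± 0.11), Per2 (0.40 ± 0.09) and Ciart (0.36 ± 0.09). Per1 read 10.07, 10.19 and 10.32 on the susceptible left and 9.88, 9.80 and 9.96 on the right, and 9.97, 10.05 and 9.78 on the resilient left against 10.15, 10.16 and 10.06 on the right. Left lay above right in susceptible mice and below it in resilient mice, with no overlap in either group, and control arrays spread from 9.94 to 10.19. Arntl and Dbp had 0.35 each and Clock -0.31, and these were not called. Ciart lost its call in 9 alternative settings and Per1 and Per2 in 3 each, and 1 clock gene was called when arrays were scaled to the median of the probes detected on every array.

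The promoters of these called regulators are shown because the members share these letters. An E-box was searched as CACGTG, which reads the same on both strands, and the half-site of the cAMP response element as TGACG on either strand, in the 250 bases before each start of transcription in RefSeq (GRCm38.p6). Of 32851 promoters, 6.02% hold the E-box and 17.8% the half-site. Of the 4 called clock genes, Per1 and Ciart are in the promoter table and both hold the E-box, Per1 in 1 of its promoters and Ciart 3 times in its only one. Of the 6 called activity genes, 5 are in the table and each has a promoter with the half-site, in 7 of 15 promoters. Neighbouring Egr2 start sites share the same stretch, which is counted for each of them. A gene with several promoters also has several chances of a match, so these counts were not compared with the 17.8%. A match describes the letters and is not a binding site. The stretches below run 5′ to 3′ on the gene's strand, with the matches in capitals.
Ciart, chr3:95882255-95882356, minus strand: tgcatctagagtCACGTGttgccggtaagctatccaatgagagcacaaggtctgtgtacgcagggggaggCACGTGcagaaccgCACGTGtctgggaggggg
Per1, chr11:69098771-69098800, plus strand: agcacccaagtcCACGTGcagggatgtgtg
Egr4, chr6:85513682-85513778, minus strand: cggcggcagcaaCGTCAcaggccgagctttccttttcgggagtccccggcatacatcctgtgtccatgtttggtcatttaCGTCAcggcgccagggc
Fosb, chr7:19310089-19310117, minus strand: tggagttgcgggTGACGcaagcgcggggg
Junb, chr8:84978838-84978866, minus strand: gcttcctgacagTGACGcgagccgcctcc

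Genes of particular neuron types were mixed. Among 13 tested interneuron markers, 2 were called to the left, against 1.03% of all genes, and 7 had a negative difference (median -0.08). The 2 were Vip, a peptide of disinhibitory interneurons, and Reln, the matrix protein reelin, at 0.49 each. Sst, the peptide of a different interneuron class, was not called at -0.35. Pdyn, the precursor of the dynorphin opioids, had 0.55 ± 0.09 (adjusted p = 0.00035). Oprk1, the receptor of those peptides, had -0.51 ± 0.10 (adjusted p = 0.00211). The brightest probes of ligand and receptor were thus shifted to opposite sides, while a dimmer Pdyn probe gave 0.05 (unadjusted p = 0.65 in limma). Oprk1 was itself dim, with a mean log2 signal of 6.92. Of 9 tested markers of striatal projection neurons, 5 were called, 4 to the right and 1 to the left, against 2.15% of all genes. Of the 9, 7 had a negative difference (median -0.22). Scn4b, Ppp1r1b, Rgs9 and Drd1 were the 4 to the right, with differences of -0.77, -0.49, -0.46 and -0.40, and Pdyn was the 1 to the left. The summed signal of the 9 was 6541 to 6650 on susceptible left arrays, 7026 to 7732 on the other stressed arrays and 6519 to 6718 in controls, so the susceptible left lay within the range of the controls, and the part of adjoining striatum was not tested. Of 31 tested sodium and potassium channel genes, Scn4b and Kcna1 (-0.40) were called, beside 2.15% of all genes. Of 27 axon guidance genes, Sema5a, Plxnb3 and Unc5b, a semaphorin, a semaphorin receptor and a netrin receptor, were called to the right at -0.60, -0.47 and -0.46. Over all genes, 1.12% were called to the right. Among genes of no list, Ddit4l, an inhibitor of mTOR signalling, had 0.64, Pdzrn3, a ubiquitin ligase, 0.67, and Car4, a carbonic anhydrase, 0.73.

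In 21 genes the side difference reversed rather than disappeared. Scn4b, the beta-4 subunit of sodium channels, had the largest difference among them (-0.77 ± 0.09, adjusted p = 6.68e-06). It read 9.39, 9.50 and 9.30 on the susceptible left and 9.89, 9.95 and 9.997 on the right, and 9.68, 9.72 and 9.77 on the resilient left against 9.51, 9.48 and 9.52 on the right. Right lay above left in susceptible mice and left above right in resilient mice without overlap, and log2 L/R was -0.55 and 0.22. Slc44a1, a choline transporter, had -0.54 and 0.17 with a difference of -0.70 ± 0.08 (adjusted p = 2.96e-06). It read 9.09 to 9.13 on the susceptible left and 9.61 to 9.70 on the right, against 9.66 to 9.68 and 9.49 to 9.53 in resilient mice. Dimmer Slc44a1 probes gave differences of -0.09 and -0.12, with unadjusted p of 0.353 and 0.185 in limma.

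Reversals to the left in susceptible mice were led by Acta2, the actin of smooth muscle. It read 8.59, 8.75 and 8.70 on the susceptible left and 8.18, 8.40 and 8.21 on the right, and 8.35, 8.54 and 8.50 on the resilient left against 8.65, 8.72 and 8.63 on the right. Log2 L/R was 0.42 in susceptible and -0.20 in resilient mice, again without overlap. Dimmer Acta2 probes gave smaller differences of 0.42, 0.28 and 0.11, against 0.62 for the brightest. The other named genes with a reversed side difference were Spag5 (0.47 and -0.13), Reln (0.36 and -0.13), Per1 (0.31 and -0.19), R3hdm2 (0.25 and -0.24, with overlapping sides in both groups and its call lost in 12 alternative settings), Oprk1 (-0.32 and 0.19), Pllp, a proteolipid of myelin (-0.26 and 0.18), and Rbm39, a splicing factor (-0.20 and 0.21). The resilient values of these reversals were small. No resilient value of the 21 genes passed adjustment, and over all 8419 genes 368 (4.37%) passed an unadjusted p of 0.05 for left against right in resilient mice. The called genes were selected in part by their resilient values, so the share of reversals among them was not compared with that background. The number of reversals was 38 without resilient left replicate 1 and 12 without resilient left replicate 2.

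**Figure D3:**
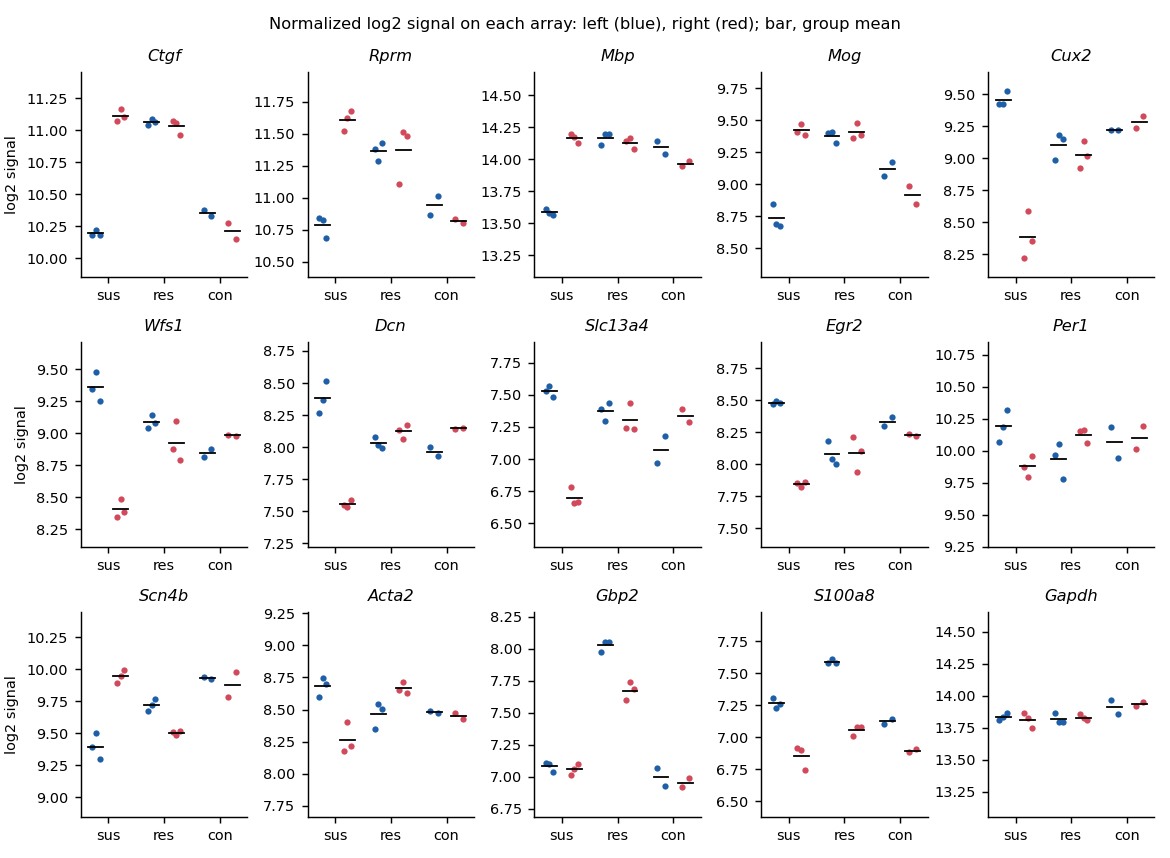
Normalized log2 signal (y axis, each panel spanning 1.6 units) of 15 genes on each array of susceptible (sus), resilient (res) and control (con) mice, left in blue and right in red, with group means as bars. Ctgf, Rprm, Mbp and Mog are low on the susceptible left alone among stressed arrays, Scn4b, Per1 and Acta2 cross over between groups, and Gapdh lies between 13.75 and 13.96 throughout.

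A few genes ran against the general pattern. Gbp2, an interferon-induced GTPase, had a side difference past the threshold in resilient mice alone. It read 7.98, 8.06 and 8.05 on the resilient left and 7.60, 7.74 and 7.68 on the right, against 7.02 to 7.11 on all susceptible arrays and 6.92 to 7.07 on control arrays. Susceptible minus resilient, its level was -0.95 on the left and -0.61 on the right (limma adjusted p = 7.96e-11 and 1.24e-06). The susceptible and control signals were low, so a side difference there may have been missed. Log2 L/R was 0.36 in resilient and 0.02 in susceptible mice, a difference of -0.33 ± 0.09 (adjusted p = 0.0345) that lost its call in 14 of the 32 alternative settings. Tmem229b had 0.24 in resilient and -0.11 in susceptible mice, and its difference (adjusted p = 0.0489) lost its call in 23 settings.

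Other genes kept 1 side in both groups. Blood myeloid markers were the clearest. S100a8, a calcium-binding protein of neutrophils, read 7.30, 7.23 and 7.26 on the susceptible left and 6.92, 6.90 and 6.74 on the right, and 7.58, 7.61 and 7.58 on the resilient left against 7.01, 7.08 and 7.08 on the right. Left was above right without overlap in both groups, log2 L/R was 0.41 and 0.53, and the difference was -0.12 with a 95% interval from -0.29 to 0.05. The lysozymes Lyz1 (0.41 and 0.32) and Lyz2 (0.35 and 0.20) and Ifitm3 (0.23 and 0.18) were likewise higher on the left in both groups. Of the 439 genes called for left against right in susceptible mice (5.21%), 15 passed an unadjusted p of 0.05 on the same side in resilient mice and 10 on the other side, and 167 were called in the difference. In resilient mice 3 genes were called for left against right (0.0356%), S100a8, Lyz1 and Gbp2, and of these Gbp2 was called in the difference.

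The side on which susceptible and resilient mice differed was not the same for all groups of genes. Over all genes, 200 (2.38%) were called between susceptible and resilient mice in the left mPFC and 70 (0.831%) in the right. All 25 called myelin genes differed more on the left, where each was called, and 0 were called on the right by limma, with a median of -0.63 on the left and -0.01 on the right. The 7 called layer 6 and layer 6b markers also differed on the left and were called there. Ctgf, for example, had susceptible minus resilient levels of -0.87 on the left and 0.08 on the right (adjusted p = 0.61 there). Of the 6 called meningeal genes, 5 were called on the right and 1 on the left, and these counts are not exclusive. Their medians were 0.19 on the left and -0.42 on the right, and Slc13a4 had 0.15 and -0.61. Dcn, the 1 called on the left, differed on both sides. Its means in susceptible and resilient mice were 8.383 and 8.03 on the left and 7.555 and 8.123 on the right. Upper-layer genes differed on both sides in opposite directions, 5 being called on the left and 4 on the right, with medians of 0.35 and -0.52. All 87 genes shifted to the left had opposite signs on the 2 sides, and 48 of them differed more on the left and 39 more on the right. Of the 94 genes shifted to the right, 75 differed more on the left. The called difference is the left value minus the right value, so its selection favours opposite signs on the 2 sides. Of the 87 genes 27, and of the 94 genes 21, were called on neither side alone.

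**Figure D4:**
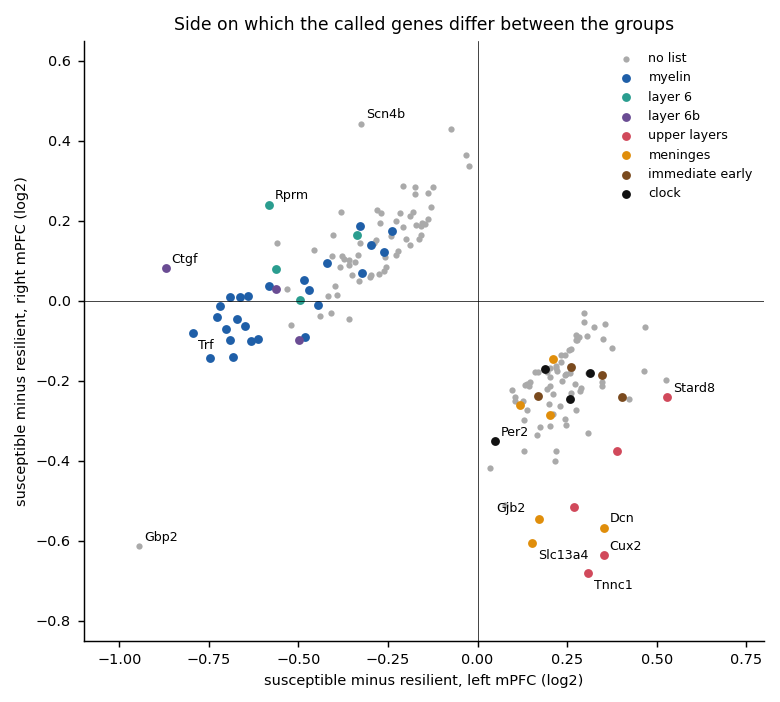
Susceptible minus resilient level (log2) in the left mPFC (x axis) and in the right mPFC (y axis) for the 181 called genes, 1 point a gene, coloured by list. Myelin and layer 6b genes lie at negative x and near 0 on y, meningeal genes lie below 0 on y and from 0.12 to 0.35 on x, and upper-layer genes have positive x and negative y.

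Most other functions showed no called gene. Of 54 cytosolic ribosomal protein genes, 67 respiratory chain genes and 31 proteasome genes, 0 were called by limma and 1, 4 and 3 passed an unadjusted p of 0.05. The same held for 13 astrocyte, 12 microglia and 10 endothelial markers, of which 1, 1 and 2 passed it, with medians of 0.05, 0.06 and 0.15, and for 14 cholesterol genes and 25 synaptic vesicle genes, of which 1 and 4 passed it. Of 10 glutamate receptor subunits 0 were called and 4 passed it, and of 6 GABA receptor subunits 0 were called and 0 passed it. Over all 8419 genes, 1023 passed it. Of 10 glucocorticoid receptors and targets, 1 was called, beside 2.15% of all genes, and the list median was 0.03. It was Per1, counted above as a clock gene. Among the housekeeping genes that the study used as a check, Gapdh had a difference of 0.03 (95% interval -0.13 to 0.20), Actb -0.12 (-0.29 to 0.05) and B2m 0.15 (-0.05 to 0.35).

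The study's 8 functional lists were chosen on these samples for their side difference in susceptible mice, so their direction is not independent evidence. In the comparison with resilient mice, 7 of 8 tested genes of ensheathment, 6 of 7 of myelination, 7 of 8 of action potentials and 3 of 6 of gliogenesis were called to the right. On the left side of the comparison, 3 of 5 genes of neuronal synaptic plasticity, 5 of 8 of cognition, 3 of 7 of the response to metal ions and 4 of 12 of synaptic transmission were called. Over all genes, 1.12% were called to the right and 1.03% to the left. The median log2 L/R of these 8 lists in resilient mice lay between -0.04 and 0.04.

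The call threshold fell among genes of similar size. Just inside it lay Tmem229b and Capn1 (-0.35 each), Dab2 (0.35) and Inhbb (0.36), with adjusted p from 0.047 to 0.0489. Capn1 and Dab2 lost their call in 22 of the 32 alternative settings, and Tmem229b and Inhbb in 23. Just outside it lay Rims1 (-0.34), Nmral1 (-0.32), Prelp (0.33) and Kctd4 (0.34), with adjusted p from 0.0507 to 0.0534.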

How the data were processed

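RNA of the left and right mPFC was hybridised to Illumina MouseRef-8 v2 arrays and read by the authors with GenomeStudio 1.0.6. Deposited were linear intensity values, averaged by probe (51.9 to 37310), without stated background subtraction, and a detection score between 0 and 1, which was subtracted from 1 to give the detection p. A further table deposited by the authors holds log2 values made with lumi (version and method not given in the sources used here), which have a median of 7.28 on each array and were used as an alternative.

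The log2 of the signals was quantile normalized over 16 arrays with limma 3.58.1 in R 4.3.3. Probes detected (p of 0.05 or lower) on all arrays were kept (11922, of which 700 have no symbol), and the brightest probe stood for each of 8419 genes. Gene symbols came from the platform annotation and were updated to RefSeq, and the article's name Ctgf was kept. Of 181 called genes, 45 had several detected probes and 2 of these (Mbp, Tle1) a probe of the other sign. A linear model with 6 groups (lmFit and eBayes, 10 residual and 16 prior degrees of freedom, prior SD 0.0826) gave the contrast of left minus right in susceptible minus that in resilient mice, with p-values adjusted over 8419 genes and a threshold of 0.05. Values are log2 differences with the standard error of the fit. The procedure was tested on simulated data. Arrays correlated between 0.994 and 0.9981 and no pair was identical.

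Alternatives were another normalization, scaling, background correction, detection filter, probe rule or variance model, blocks, the 12 stressed arrays alone and leaving out each array. The members, gene lists and rules were chosen with earlier results of these data known. Named genes are the 12 called genes with the largest difference in each direction, up to 4 called members of each list, up to 10 reversed and 5 gained genes, up to 5 genes with the same side in both groups, the genes the article names for the arrays, genes called in resilient mice, and the 2 nearest to the threshold on each side and in each direction. List members outside this rule (Apod, Arc, Arntl, Car2, Clock, Cux1, Dbp, Egr1, Foxp2, Mef2c, Mgp, Mtmr2, Npas4, Nr4a2, Ntsr1, Ptgds, Rorb, Serpinf1, Sst and Tle4) were added after their values were seen. Plots were made in matplotlib 3.10.9 under Python 3.11.15.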

Additional observations from a re-analysis of the deposited data

Results flagged for a closer look

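The difference between groups of mice in the same left against right comparison was tested directly by limma, which 181 genes passed, and the 60 of them that are named are given here for that reason. In susceptible mice, relative to resilient mice, log2 L/R was shifted to the right in Ctgf (-0.95), Rprm (-0.82), Scn4b (-0.77), Trf (-0.72), Prr18, Slc44a1 and Anln (-0.70 each), Bcas1 (-0.69), Fa2h (-0.67), Mog (-0.65), Sulf1 (-0.64), Mal (-0.63), Cldn11 and Mbp (-0.62 each), Sema5a (-0.60), Lpar1 (-0.59), Oprk1 (-0.51), Zfpm2 and Sla (-0.50 each), Ppp1r1b (-0.49), Plxnb3 (-0.47), Unc5b and Rgs9 (-0.46 each), Pllp (-0.44), Rbm39 (-0.41), Kcna1 and Drd1 (-0.40 each), Tmem229b and Capn1 (-0.35 each), Gbp2 (-0.33). It was shifted to the left in Cux2 and Tnnc1 (0.99 each), Dcn (0.92), Wfs1 (0.79), Nectin3 and Stard8 (0.77 each), Slc13a4 (0.76), Car4 (0.73), Gjb2 (0.72), Pdzrn3 (0.67), Ddit4l and Egr2 (0.64 each), Acta2 (0.62), Spag5 (0.60), Pdyn (0.55), Egr4 (0.53), Bhlhe40 and Per1 (0.50 each), Igf2, R3hdm2, Reln and Vip (0.49 each), Fosb and Bdnf (0.43 each), Junb (0.41), Per2 (0.40), Inhbb and Ciart (0.36 each), Dab2 (0.35), Vgf (0.34). Groups of 3 arrays are too small for a search for outlying arrays.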

How the results depend on the processing

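All 60 named genes past the threshold kept their direction under all 32 alternatives, and 39 of them stayed past it in every one except scaling to a common median. That scaling left 1 gene of 181 (Cux2, 1 shifted to the left and 0 to the right in limma, with 217 at an unadjusted p below 0.05), 1 lost and 0 reversed side differences, while the prior SD rose from 0.0826 to 0.134. Scaling to the median of probes detected on every array, added after the data had been seen, gave 102 genes (53 left, 49 right, 95 lost, 7 reversed), all among the 181. The last 8 arrays of the deposited table alone, with 2 stressed arrays per side and group, gave 95 (48 left, 47 right, 80 lost). Without 1 array, the count ran from 140 to 183 (left 70 to 95, right 70 to 91, lost 128 to 150, reversed 12 to 38). The replicate numbers were not taken to pair the arrays. Same-numbered left and right arrays correlated at -0.02 to 0.341, other-numbered ones at -0.259 to 0.199, and each array correlated best with its own number in susceptible but not in resilient mice. The replicate block gave 230 genes with 39 reversed, the replicate block within each group of mice 232 with 42 reversed, and a block for the first against the last 8 arrays 233 with 38 reversed. Blood and tissue make-up were not adjusted for. The uncalled differences of Actb and Gapdh changed sign, to 0.0233 with the mean over detected probes and to -0.0146 with scaling to a common median. The other alternatives gave 156 genes (only the 12 arrays) to 217 (mean over detected probes). Genes not detected on every array were not tested in the main setting. Some tested genes were dim, and the size of their difference depended on the processing. Over the alternatives, Slc13a4 ran from 0.47 to 1.53, Gjb2 from 0.47 to 1.25 and Oprk1 from -1.14 to -0.30.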

Other observations

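Some families with several called members belong to no list above. They were chosen after their values were seen, so their counts are a description, and 2.15% of all genes were called. Of 5 tested copines, calcium-dependent membrane-binding proteins, Cpne4 (0.52), Cpne6 (0.50) and Cpne9 (0.38) were called to the left in susceptible mice, and log2 L/R in resilient mice was -0.02, -0.03 and 0.00. Cpne8 (0.24) and Cpne2 (-0.06) were not called. Of 9 tested serotonin, dopamine, muscarinic, adrenergic, opioid and orexin receptors, 5 were called, all to the right. They were Oprk1 (-0.51), Htr1f (-0.42), Drd1 (-0.40), Hcrtr1 (-0.39) and Chrm2 (-0.34), whereas Chrm3 (-0.09), Htr1a (-0.05), Adra2c (-0.01) and Htr4 (0.12) were not called.

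Among intermediate filaments of the axon, Ina (-0.41) and Nefh (-0.40) were called to the right, and Nefm had -0.33 with an adjusted p of 0.37 in limma. Of 9 tested cadherins, Cdh7 (0.43) and Cdh8 (0.38) were called to the left, and the median of the 9 was 0.02. Of 13 tested S100 and annexin genes, S100a11 (0.38) and Anxa2 (0.32) were called to the left, while S100a8 (-0.12) was not called. Hba-a1, the alpha chain of haemoglobin, and Alas2, the first enzyme of haem synthesis in red cells, summed to 9047 to 10027 on susceptible left arrays, 7384 to 7978 on susceptible right arrays and 6456 to 7513 on resilient arrays, and neither was called in the difference.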
